A study of Mus musculus with 36 samples.

Results

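The transcription factor gene Atf4, genes that ATF4 is known to control, and the cytosolic aminoacyl-tRNA synthetases were followed in haematopoietic stem and progenitor cells from mouse bone marrow as they differentiated along myeloid courses in culture. The 31 genes were taken by symbol from a list of ATF4 targets and tRNA synthetases, and all 31 were among the 24411 genes of the 2 expression tables. They comprise 7 stress regulators (Atf4, Ddit3, Trib3, Nupr1, Ppp1r15a, Chac1 and Vldlr), 5 genes of amino acid synthesis and one-carbon metabolism (Asns, Psat1, Phgdh, Shmt2 and Mthfd2), 3 amino acid transporter genes (Slc7a5, Slc3a2 and Slc7a1), 12 synthetases that are usually listed as ATF4 targets and 4 others (Kars, Rars, Vars and Hars). Total RNA was sequenced from cells of mice of genotype WT, used as controls, and of the Taf1 conditional knockout, in 36 libraries that form 12 groups of 3. Cells were collected at day 0, at day 3 of a culture in SCF with IL-3, and at day 5 and day 7 of each of 2 courses that divided the 3-day culture. The granulocyte course used SCF, IL-3 and G-CSF and then G-CSF alone. The macrophage course used GM-CSF with M-CSF and then M-CSF alone. The cultured groups shared horse serum medium and a dose of 50 ng/ml of each cytokine, and the day 0 cells were taken before culture. The labels give neither the Cre driver nor the deleted part of Taf1, the age or strain of the mice, or whether a replicate is a mouse of its own, so the p-values below measure the spread between these libraries only.

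ATF4 is the main effector of the integrated stress response. Kinases that sense unfolded protein, lack of amino acids, haem shortage or viral RNA phosphorylate the translation factor eIF2, which slows general translation while the Atf4 message is translated more. ATF4 then binds C/EBP-ATF response elements and activates genes of amino acid uptake, amino acid synthesis and tRNA charging, together with the regulators that end or redirect the response. Aminoacyl-tRNA synthetases join each amino acid to its tRNA and are needed by every cell that makes protein. Taf1 encodes the largest subunit of TFIID, which assembles at core promoters ahead of RNA polymerase II.

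The response element can be read in the promoters themselves. RefSeq promoter windows on GRCm38.p6, from 250 bases before to 50 bases after the start site, were matched for 22 of the 31 genes. The core TGATGNAA, searched on both strands (TTNCATCA on the other), was present in a window of 10 of these 22 genes (45.5%) and of 1219 of all 27025 genes with a window (4.51%). The stricter TGATGCAA, a case of the first motif, was present for 7 of the 22 (31.8%) and for 1.03% of all genes. By role, the core was found for 4 of 7 stress regulators, 1 of 5 synthesis genes, 0 of 2 transporters, 5 of 7 target synthetases and 0 of 1 other synthetase. A match describes letters in a window and does not show binding. The following 30-base stretches are matches at 4 stress regulators and Asns, which the results turn on, and at Yars, as an example beside a synthetase start site. Each reads 5′ to 3′ on the gene's strand, with the match in capitals.
Trib3, chr2:152344028-152344057, minus strand: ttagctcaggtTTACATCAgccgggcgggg
Nupr1, chr7:126625562-126625591, minus strand: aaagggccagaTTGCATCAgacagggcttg
Chac1, chr2:119351038-119351067, plus strand: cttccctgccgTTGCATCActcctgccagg
Vldlr, chr19:27216809-27216838, plus strand: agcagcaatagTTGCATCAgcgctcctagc
Asns, chr6:7693214-7693243, minus strand: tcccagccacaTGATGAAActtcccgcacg
Yars, chr4:129189895-129189924, plus strand: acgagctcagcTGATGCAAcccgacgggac
Counted from the annotated start, the match began at -193 in Chac1, -200 in Vldlr, -110 in Nupr1 and -23 in Asns, and after the start at 15 in Trib3 and 4 in Yars. Atf4, Ddit3 and Ppp1r15a had windows without these letters, which says only that the letters are not in that window.

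Values are TPM, an abundance of transcripts that is scaled for gene length and to the same total in each library. Between 10289 and 11226 genes reached 1 TPM in a library, and replicates of a group correlated across genes with Pearson's r between 0.989 and 0.998. TPM tables carry no read depth, so the depth behind each value is unknown. Taf1 itself was lower in knockout cells at day 0 (8.85 ± 0.303 TPM against 14.1 ± 0.491; SD, n = 3), at day 5 (6.11 against 13.1 on the macrophage side and 7.36 against 14.2 on the granulocyte side) and at day 7 of each (7.19 against 13.2 and 7.77 against 11.2). At day 3 the libraries overlapped (9.34 ± 0.849 against 10.7 ± 0.939, limma adjusted p = 0.0711), so the level checks the day 3 label weakly, and since the deleted part is not given, residual reads do not measure intact Taf1. Differences were tested with limma on log2(TPM + 1), adjusted by Benjamini and Hochberg over all genes tested, and a gene is said to rise or fall only where the adjusted p is under 0.05. In bulk RNA, a change in the number of cells of a type and a change in RNA per cell cannot be told apart.

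One pair of libraries stood apart in these genes and touches every comparison. Replicate 1 of the day 5 controls had Trib3 at 250.4 TPM in the macrophage course, where replicates 2 and 3 had 13.7 and 14.5. In the granulocyte course replicate 1 had Trib3 at 269 TPM, against 6.68 and 5.98 in the others. The ratio of replicate 1 to the mean of the other 2 in the macrophage course was 17.8 for Trib3, 8.81 for Nupr1, 8.76 for Ddit3, 3.11 for Asns and 1.77 for Atf4, and that of Kars was close to 1. Of the 31 genes, 14 were more than 1 log2 unit above the other 2 replicates in the macrophage course, and 22 were in the other course, while 4.34% and 5.77% of all genes were off by as much in either direction. The culture was divided between the courses after day 3, so the 2 libraries may share cells and are not independent of each other. S100a8 and S100a9, granulocyte genes, held 4.93% and 5.49% of the TPM in these 2 libraries and at least 13.9% in replicates 2 and 3, and their part in the difference was not tested. Because all groups of a course share 1 estimate of the spread, this replicate also widens the error at other days. Results are therefore given from all libraries and, where the call or value changes, without replicate 1 of the day 5 controls, an alternative chosen after the data were seen.

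In control cells the 3 days in SCF and IL-3 were the step at which the stress regulators rose. Atf4 had 127, 144 and 109 TPM at day 0 and 403, 460.2 and 502 TPM at day 3. Trib3, which encodes a pseudokinase that restrains ATF4 signalling, went from 0.31, 0.15 and 0.26 TPM to 115, 74.6 and 87.4 TPM. Nupr1, a small chromatin-associated stress protein, went from between 0.52 and 1.89 TPM to 113, 89.1 and 107 TPM. In these genes every day 3 library lay above every day 0 library. The rises were 1.84 ± 0.19 log2 units (SE) for Atf4 (limma adjusted p = 3.47e-08), 6.21 ± 0.63 for Trib3 (2.32e-08) and 5.64 ± 0.50 for Nupr1 (3.12e-09). Chac1, which degrades glutathione, rose by 4.10, Ddit3, the pro-death factor CHOP, by 3.18, Vldlr, a lipoprotein receptor, by 2.69, and Ppp1r15a, which directs a phosphatase to eIF2, by 2.07. All 7 stress regulators therefore rose. Marker sums moved at the same step: macrophage markers from between 199 and 272 TPM to between 1419 and 1854, granulocyte markers from between 12856 and 22357 to between 78670.2 and 93703.5, megakaryocyte markers from between 119.9 and 209.6 to between 1395 and 2415 and eosinophil markers from between 405 and 2175 to between 2715 and 3760, with progenitor markers down from between 349 and 424 to between 116 and 154. Their part in the rise was not tested. Over the 31 genes 16 rose and 4 fell, with a median of 0.45 against -0.07 for all genes, where 73% passed the test, 33.3% higher and 39.6% lower.

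The metabolic genes and synthetases divided at this step. Mthfd2, the mitochondrial methylene-tetrahydrofolate dehydrogenase, rose by 2.04 and Asns, asparagine synthetase, by 1.59. Slc3a2 and Slc7a5, which together form the large neutral amino acid exchanger, rose by 1.65 and 0.91. Among the 12 target synthetases 5 rose, Sars by 1.18, Aars by 0.91, Cars by 0.87, Gars by 0.61 and Yars by 0.45, and 0 fell. Of the 4 other synthetases 0 rose and 3 fell. Hars had 89.0, 103 and 87.1 TPM at day 0 and 32.9, 44.4 and 45.3 TPM at day 3. Kars had 180.4, 197 and 176 TPM and then 77.3, 90.0 and 94.9 TPM. Neither pair of groups overlapped, and the changes were -1.18 ± 0.12 (2.58e-08) and -1.07 ± 0.09 (1.58e-09). Vars (-0.77) and Phgdh, the first enzyme of serine synthesis (-1.05), fell too. The reference annotation holds 9 processed pseudogenes of Phgdh that are 95.3% to 98.7% identical to it, and a near-identical pseudogene of Iars, so values of Phgdh and Iars are uncertain to the extent that reads were shared.

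**Figure D1:**
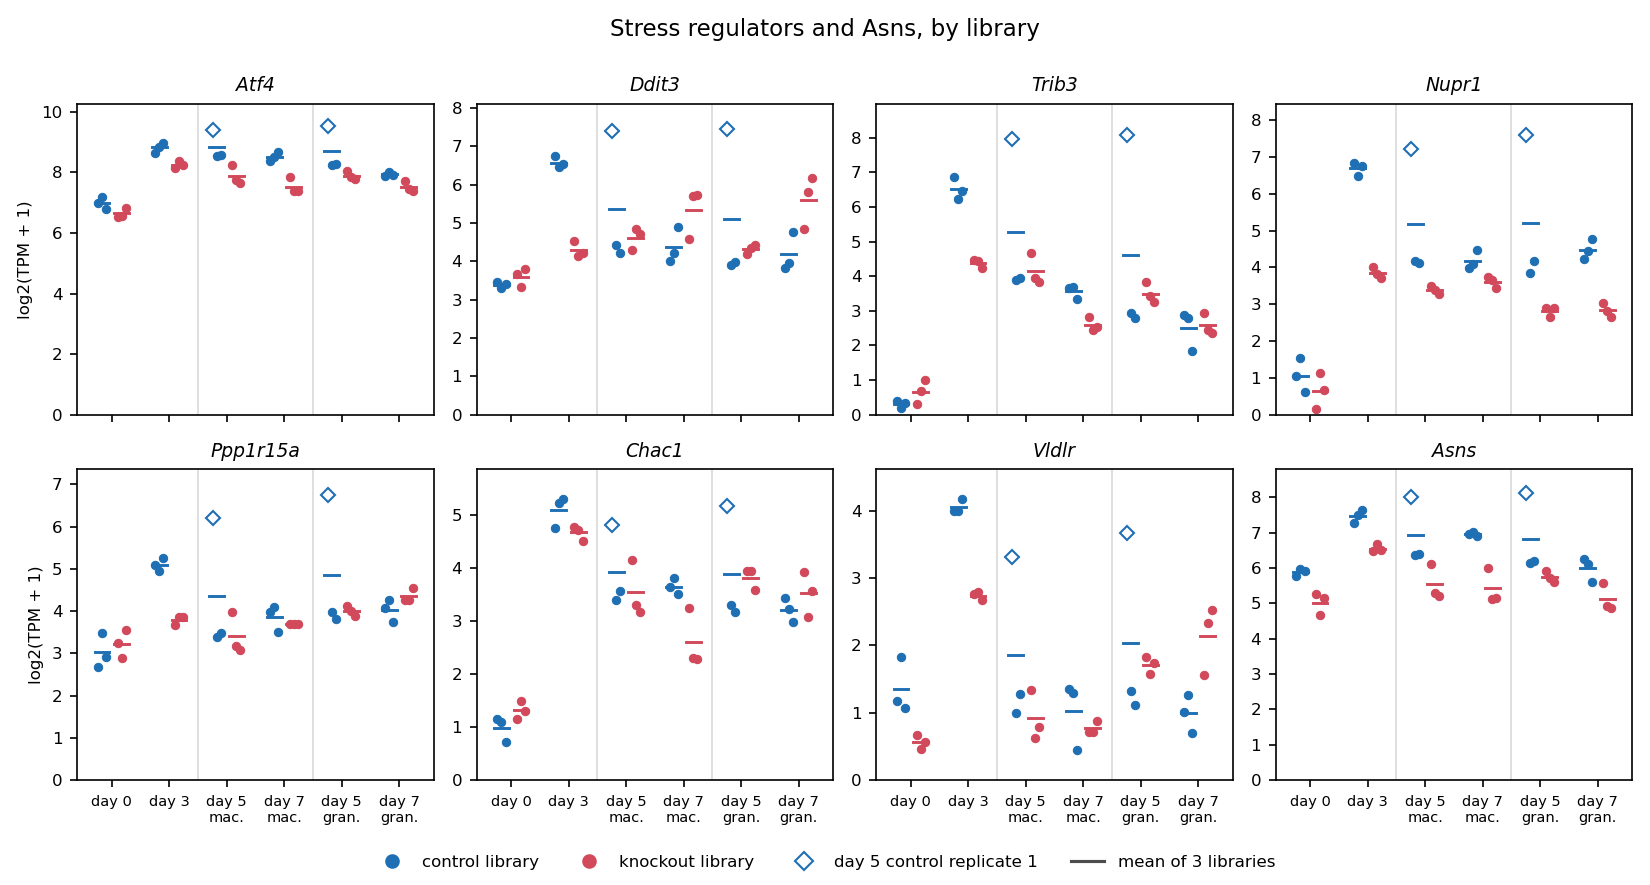
Levels of the 7 stress regulators and Asns in each library, on the axis of log2(TPM + 1), by stage (day 0, day 3 and days 5 and 7 of the macrophage and granulocyte course). Dots are libraries, bars are means of 3 libraries, and open diamonds mark replicate 1 of the day 5 controls, which has 250.4 TPM of Trib3 in the macrophage course where the other 2 controls have 13.7 and 14.5. At day 3 the knockout libraries of Nupr1 lie between 12.2 and 15.2 TPM and the controls between 89.1 and 113 TPM.

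At day 0, before culture, none of the 31 genes passed the test between genotypes, where 23.3% of all genes tested did, 13.1% higher and 10.2% lower, and 3 of the 31 had an unadjusted p under 0.05. Asns had 37.4, 24.4 and 34.3 TPM in the knockout and 53.7, 61.4 and 58.9 TPM in controls. Every knockout library was below every control library, with a difference of -0.86 ± 0.32 (limma adjusted p = 0.0585). Without replicate 1 of the day 5 controls, whose removal leaves this difference as it is and narrows its error, Asns (0.00577) and Vldlr (-0.79, 0.00927) fell and Gars (0.43, 0.00393) and Iars (0.34, 0.0376) rose (27.5% of all genes passed). After median-of-ratios scaling Asns alone passed (-0.93, 0.0368; 25.7% of all genes passed). Atf4 differed by -0.34, with a 95% interval from -0.74 to 0.06, and its libraries overlapped.

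The knockout separated from the control at day 3, and the stress regulators held the largest differences among the 31 genes. Nupr1 had 15.2, 13.1 and 12.2 TPM in the knockout against 113, 89.1 and 107 TPM in controls. Ddit3 had 22.2, 16.6 and 17.5 TPM against 106, 86.6 and 91.3 TPM. Trib3 had 21.2, 20.6 and 17.7 TPM against 115, 74.6 and 87.4 TPM. In these 3 genes the highest knockout library was far below the lowest control library. The log2 differences were -2.84 ± 0.50 for Nupr1 (limma adjusted p = 8.24e-05), -2.28 ± 0.51 for Ddit3 (0.000945) and -2.15 ± 0.63 for Trib3 (0.00728). Vldlr (-1.31 ± 0.38, 0.00702) and Ppp1r15a (-1.29 ± 0.46, 0.0237) fell as well. Atf4 had 281, 331 and 304 TPM against 403, 460.2 and 502 TPM and differed by -0.57 ± 0.19 (0.0172). Chac1 did not pass: it had 21.8 to 26.46 TPM against 25.8, 36.3 and 38.4 TPM, a difference of -0.42 with a 95% interval from -1.06 to 0.23. So 6 of 7 stress regulators fell at day 3, with a median of -1.31.

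The metabolic genes moved in both directions at day 3. Asns had 88.1, 101 and 89.4 TPM in the knockout against 154, 178 and 198 TPM, and differed by -0.92 ± 0.32 (limma adjusted p = 0.0211). Mthfd2 fell from 89.7, 105 and 108 TPM in controls to 58.3, 75.4 and 66.9 TPM (-0.59 ± 0.21, 0.0222). Phgdh rose by 0.51 ± 0.19 (0.0276), and Psat1, the next enzyme of serine synthesis, gave 0.28 with an interval from -0.13 to 0.68. None of the 3 transporter genes passed.

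The synthetases did not follow the regulators as a group at day 3. Among the 12 target synthetases Sars fell, with 69.5, 73.2 and 71.7 TPM against 107, 105 and 118 TPM (-0.61 ± 0.20, limma adjusted p = 0.0136), and Tars rose (0.37 ± 0.13, 0.0199). Among the 4 others Hars and Kars rose. Hars had 76.6, 89.0 and 85.7 TPM in the knockout against 32.9, 44.4 and 45.3 TPM, a rise of 1.03 ± 0.12 (8.43e-07). Kars had 119.8, 138 and 129 TPM against 77.3, 90.0 and 94.9 TPM, a rise of 0.56 ± 0.09 (3.44e-05). No library of either gene overlapped between genotypes. Over the 31 genes 4 rose and 9 fell, with a median of -0.23 against -0.01 for all genes, of which 53.2% passed, 26.5% higher and 26.7% lower. With replicate 1 of the day 5 controls left out 17 passed (56.5% of all genes), with Slc3a2 (-0.30), Aars (-0.40), Eprs (-0.27) and Yars (-0.29) added. Exons of Hars and of its mitochondrial counterpart Hars2 overlap by 195 bases on opposite strands, as do those of Ddit3 and Mars by 68 bases, and whether reads were counted by strand was not stated in the sources used here. Aars shares 1326 exon bases (14.3%) with the gene Exosc6 on the same strand, which counting by strand would not separate. Values of Aars are uncertain to the extent that reads were shared.

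The changes from day 0 to day 3 were compared between genotypes directly. Of the 31 genes 2 differed upward and 3 downward, where 32.3% of all genes passed, 15% upward and 17.3% downward. The control rise of Ddit3 by 3.18 was 0.70 in the knockout, that of Trib3 by 6.21 was 3.71, and that of Nupr1 by 5.64 was 3.20. Hars changed by -1.18 in controls and -0.26 in the knockout, and Kars by -1.07 and -0.59. The differences were -2.49 ± 0.73 for Ddit3 (limma adjusted p = 0.0132), -2.51 ± 0.89 for Trib3 (0.0368), -2.44 ± 0.71 for Nupr1 (0.0123), 0.92 ± 0.17 for Hars (0.000532) and 0.48 ± 0.13 for Kars (0.00758). The change of Atf4 differed by -0.23, with an interval from -0.80 to 0.33, and that of Asns by -0.06, with an interval reaching up to 0.89, so neither genotype difference at day 3 was shown to arise during these 3 days. The count was 10 without replicate 1 of the day 5 controls (37.2% of all genes).

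**Figure D2:**
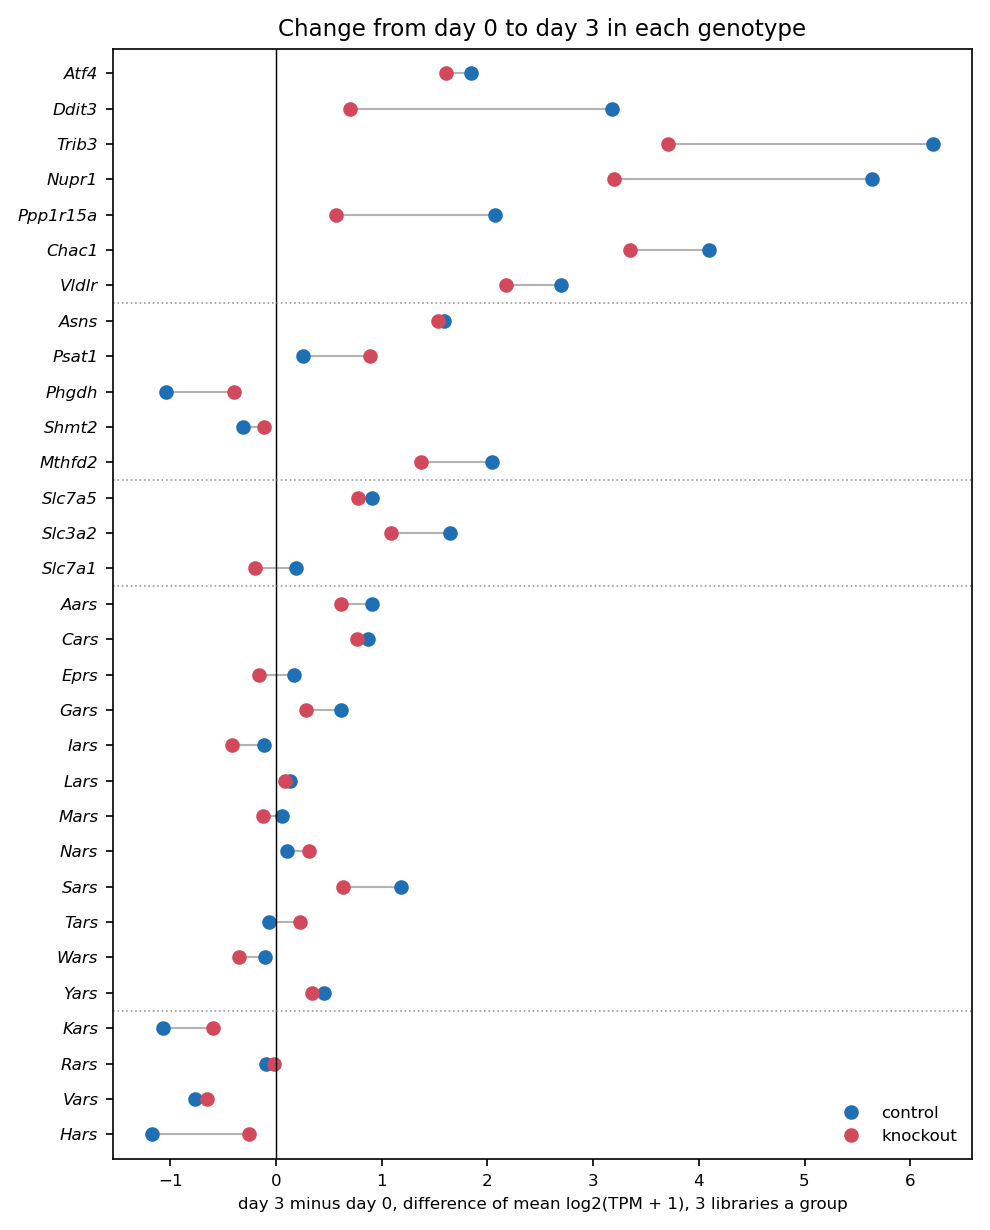
Change from day 0 to day 3 of each gene in control and knockout cells, as the difference of mean log2(TPM + 1) over 3 libraries a group, ordered by role. In controls 11 genes rose by more than 1 and 3 fell by more than 1, and in the knockout 8 and 0 did. The gap between the genotypes is 2.51 for Trib3, 2.49 for Ddit3 and 2.44 for Nupr1.

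Marker sums also differed between genotypes at day 3. The summed TPM of 14 macrophage markers was 267 to 463 in the knockout and 1419 to 1854 in controls, that of 8 megakaryocyte markers 280.3 to 619 against 1395 to 2415, and that of 7 eosinophil markers 819 to 989 against 2715 to 3760. The granulocyte sum was 133705 to 147616 against 78670.2 to 93703.5, and the progenitor sum 152.5 to 197 against 116 to 154. Erythroid markers summed to 20.6 to 23.4 against 75.5 to 109.8. The part of cell composition in the differences of the 31 genes was not tested.

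After day 3 most stress regulators of control cells declined, in a way that depends on replicate 1 of day 5. Atf4 changed by 0.02 and -0.13 to day 5 of the macrophage and granulocyte course with all libraries. Without replicate 1, 6 of 7 stress regulators fell in the macrophage course and 7 of 7 in the granulocyte course (29.4% and 28.8% of all genes fell). With all libraries, 2 of the 31 genes rose and 5 fell from day 3 to day 5 of the macrophage course (50.3% of all genes passed, 25.6% higher and 24.6% lower). On the granulocyte side 3 rose and 6 fell (44.3%, 23.4% higher and 20.8% lower). Without that replicate 1 rose and 19 fell (54.7% of all genes passed), and 2 rose and 22 fell (50.1%). The changes were then -2.61 and -3.65 for Trib3, -2.54 and -2.69 for Nupr1, and -2.24 and -2.63 for Ddit3. Hars rose in both courses with or without it, by 0.70 (limma adjusted p = 8.4e-05) and 0.79 (1.18e-05) with all libraries. From day 5 to day 7 of the macrophage course 0 rose and 3 fell (39.1% of all genes passed, 22.9% higher and 16.2% lower), namely Trib3 (-1.70), Slc7a5 (-1.32) and Slc7a1 (-0.47). Without the replicate Slc7a5 still fell (-0.93), while Trib3 and Slc7a1 did not pass and 5 synthetases, Cars, Nars, Sars, Wars and Rars, rose (40.4% of all genes passed).

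In the granulocyte course, in contrast, the synthetases of control cells fell together between day 5 and day 7. All 16 fell, from -0.58 for Nars to -1.04 for Yars, and of the 31 genes 24 fell and 0 rose. The median was -0.82 against -0.15 for all genes, of which 38% passed, 10% higher and 28% lower. The falls of Slc7a5 (-1.83), Slc7a1 (-1.39), Psat1 and Phgdh (-1.26 each) were larger. Without replicate 1 of day 5 the count was 20 (33.3% of all genes), the median of the 31 genes was -0.43 against -0.07 for all genes, the median of the 12 target synthetases was -0.47 in place of -0.81, that of the 4 others -0.52 in place of -0.65, and 14 of the 16 synthetases fell, Nars (-0.22) and Wars (-0.25) being the exceptions. Kars and Hars, which replicate 1 does not raise, changed by -0.68 and -0.59 with all libraries and by -0.71 and -0.63 without it.

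At day 5 of the macrophage course 15 of the 31 genes were lower in the knockout and 0 higher, where 43% of all genes passed, 5.11% higher and 37.9% lower. Asns had 68.2, 38.2 and 35.9 TPM against 256, 81.1 and 83.1 TPM in controls. Atf4 had 301, 213 and 199.9 TPM against 672, 374 and 385 TPM. Replicate 1 was the highest library of its genotype for both genes, and no knockout library reached a control library. The difference of Asns was -1.38 (limma adjusted p = 0.00185) and -0.84 without control replicate 1 (0.00996). That of Atf4 was -0.97 (0.000509) and -0.70 without it (0.00319), and that of Nupr1 -1.78 (0.00722) and -0.76 (0.0165). Slc7a1, the cationic amino acid transporter, had 9.05, 8.47 and 8.94 TPM against 23.9, 13.3 and 17.5 TPM and differed by -0.93 (0.000103) and -0.73 (0.000656). Mthfd2, Psat1, Aars and Iars also fell in both fits. The falls of Shmt2, Wars, Yars, Nars, Sars, Cars and Lars did not pass without that replicate, so that 8 passed (38.7% of all genes). With the replicate number as a block, which pairs the genotypes at this stage, 20 fell (46% of all genes passed), Ppp1r15a (-0.94), Vldlr (-0.95), Phgdh (-0.40), Eprs (-0.50) and Mars (-0.35) being added. The median of all genes was -0.23 and moved to -0.02 after median-of-ratios scaling, under which 2 rose (Hars by 0.34 and Kars by 0.22) and 6 fell (38.6% of all genes passed). With all libraries, the median of the 31 genes was -0.52 against -0.23 for all genes with TPM as deposited, and -0.26 against -0.02 after scaling. Without control replicate 1 the median of all genes was -0.19. The synthesis and one-carbon genes then stood at -0.51 and the target synthetases at -0.22. The stress regulators stood at -0.02, the other synthetases at 0.01 and the transporters at 0.14, above the median of all genes.

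At day 5 of the granulocyte course 7 fell and 0 rose, where 32% of all genes passed, 9.2% higher and 22.8% lower. Nupr1 had 6.40, 5.23 and 6.51 TPM against 192, 13.4 and 17 TPM, a difference of -2.39 (limma adjusted p = 0.00288), or -1.20 without control replicate 1 (0.00108). Atf4 differed by -0.80 (0.00789), or by -0.38 without it (0.0315). Even without replicate 1 the knockout libraries of Nupr1 were all below the controls. The falls of Asns, Mthfd2, Aars, Psat1 and Nars did not pass without it. In that fit Slc7a5 (0.82, 4.91e-05), Chac1 (0.58), Vars (0.42) and Iars (0.38) rose, while 28.2% of all genes passed. With all libraries Slc7a5 had 67.5, 79.4 and 89.9 TPM in the knockout against 148, 45.4 and 42.9 TPM, so control replicate 1 decides the order of the groups. The macrophage marker sum at day 5 was 847 to 1056 in the knockout against 1886 to 2880 in the macrophage course, and 374 to 753 against 1486 to 2350 in the granulocyte course. Its part in these results was not tested.

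At day 7 of the macrophage course all 5 genes of amino acid synthesis and one-carbon metabolism were lower in the knockout. Asns had 62.5, 33.8 and 34.6 TPM against 123, 129 and 119 TPM. Phgdh had 103, 60.5 and 61.3 TPM against 147, 169 and 154 TPM. Psat1 had 95.3, 62.4 and 65.2 TPM against 151, 155 and 126 TPM. Knockout replicate 1 was the highest of its group in each, and the groups did not overlap. The differences were -1.54 ± 0.32 for Asns (limma adjusted p = 0.000863), -1.10 ± 0.19 for Phgdh (0.000138), -0.97 for Psat1 (0.000618), -0.84 for Mthfd2 (0.00339) and -0.62 for Shmt2, the mitochondrial serine hydroxymethyltransferase (0.0204). Atf4 had 229, 165 and 165 TPM against 334, 363 and 410.2 TPM and differed by -0.99 ± 0.19 (0.000452). Chac1 (-1.04, 0.0113) and Slc7a1 (-0.58, 0.00593) fell.

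None of the 12 target synthetases passed at this stage, and Hars (0.40, limma adjusted p = 0.012) and Kars (0.31, 0.0112) rose. After median-of-ratios scaling both kept their direction (0.24 and 0.15) but did not pass (0.0633 and 0.117), and the count over the 31 genes became 0 higher and 14 lower (40.3% of all genes passed). With TPM as deposited it was 2 higher and 8 lower with a median of -0.20, where 39.9% of all genes passed, 27.4% higher and 12.5% lower, with a median of 0.12. Ddit3 did not pass (0.98, 0.137), with 23.2, 51.4 and 52.5 TPM against 15.1, 17.5 and 28.6 TPM. Without replicate 1 of the day 5 controls it rose (limma adjusted p = 0.00343), and Nupr1 (-0.57) and Trib3 (-0.97) fell. In that fit 3 target synthetases fell, Aars (-0.33), Mars (-0.23) and Yars (-0.35). Rars (0.29) and the transporter gene Slc3a2 rose beside Hars and Kars, and 18 passed (44.9% of all genes). Short structural RNA and histone genes together held 15.7%, 8.70% and 9.07% of the TPM in the knockout replicates against 16.9% to 19.9% in controls, and when they were left out the counts were 0 higher and 9 lower (35.1% of all genes passed). The megakaryocyte marker sum was 1824 to 2264 in the knockout against 419.6 to 444, and the macrophage sum 5522 to 6047 against 3540.3 to 4329. The part of these in the results was not tested.

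**Figure D3:**
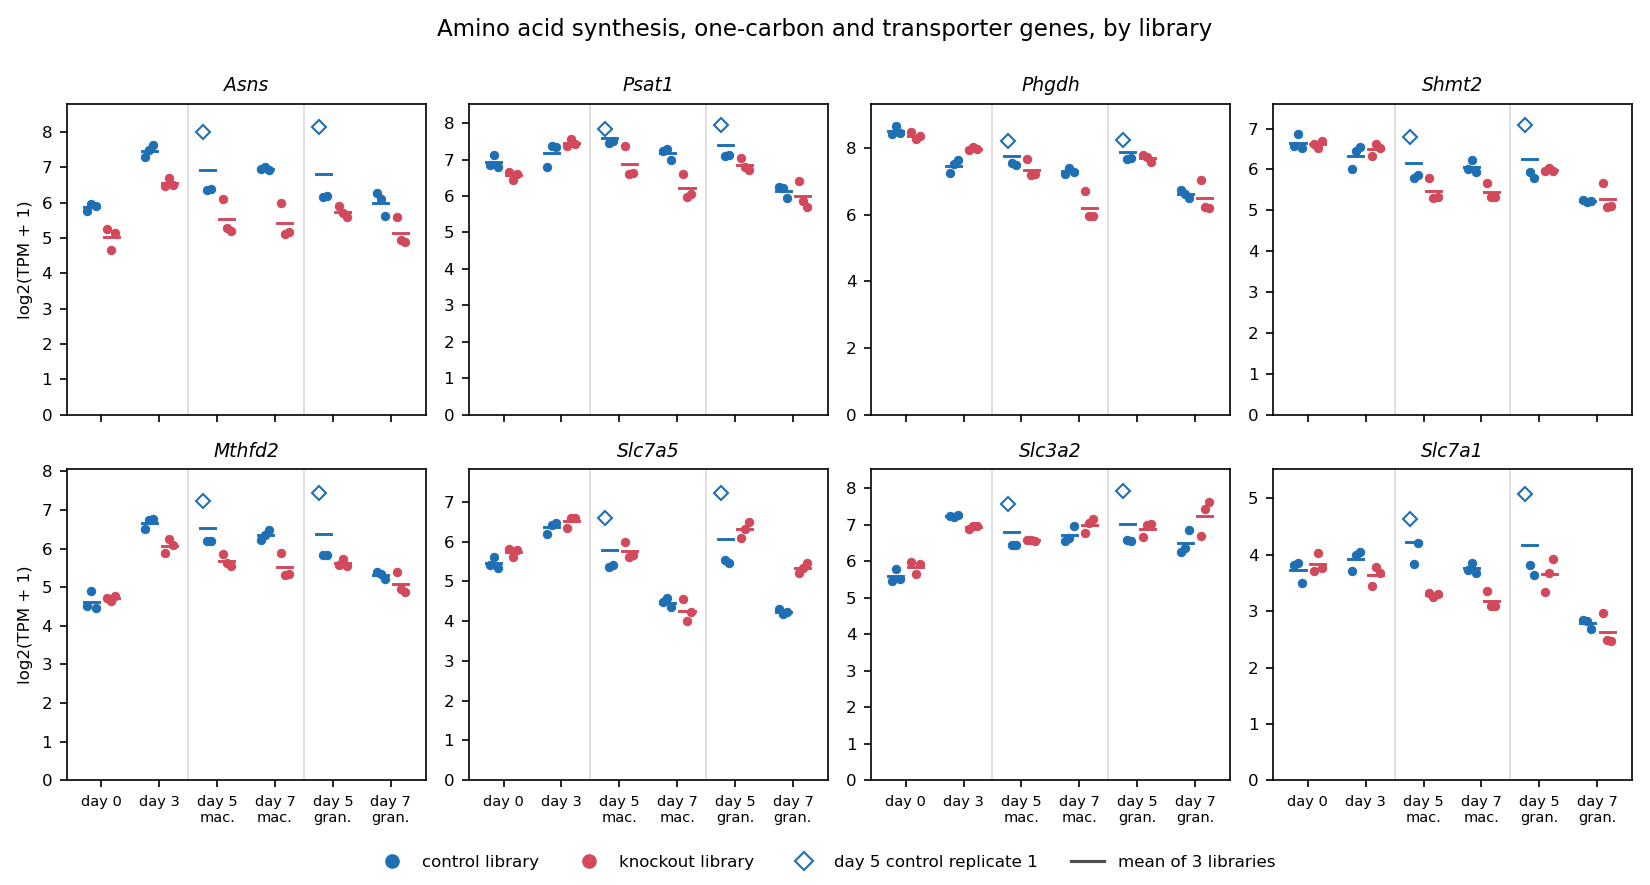
Levels of genes of amino acid synthesis, one-carbon metabolism and transport in each library, on the axis of log2(TPM + 1), by stage. Dots are libraries, bars are means of 3 libraries and open diamonds mark replicate 1 of the day 5 controls. At day 7 of the macrophage course knockout Asns lies between 33.8 and 62.5 TPM and control Asns between 119 and 129 TPM. At day 7 of the granulocyte course knockout Slc7a5 lies above the controls.

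At day 7 of the granulocyte course the transporter genes Slc7a5 and Slc3a2 and the regulators Ddit3 and Vldlr were higher in the knockout, and Nupr1 and Asns lower. Slc7a5 had 36.2, 39.5 and 43.2 TPM against 18.7, 17.1 and 17.9 TPM, and rose by 1.10 ± 0.28 (limma adjusted p = 0.00317). Its partner Slc3a2 had 103, 170.5 and 194 TPM against 75.8, 82.0 and 114 TPM, and rose by 0.75 ± 0.26 (0.0261) although knockout replicate 1 overlapped the controls. Ddit3 had 27.7, 54.6 and 71.8 TPM against 13.3, 14.7 and 26.0 TPM, and rose by 1.42 ± 0.57 (0.0476). Vldlr rose by 1.15 (0.0291), from 1.01, 1.41 and 0.62 TPM to 1.94, 4.06 and 4.76 TPM. Nupr1 again was lower, with 7.24, 6.06 and 5.27 TPM against 17.7, 20.8 and 26.4 TPM (-1.64 ± 0.57, 0.0239), and so was Asns, with 46.8, 29.5 and 28.3 TPM against 75.4, 67.9 and 47.8 TPM (-0.86, 0.0432). Hars (0.44, 0.00347) and Kars (0.33, 0.00614) rose. So 6 rose and 2 fell, with a median of 0.16 against 0.17 for all genes, of which 44.1% passed, 32.1% higher and 12% lower, so the share that rose was below that of all genes.

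Scaling matters at this stage. The median of all genes moved from 0.17 to -0.02 under median-of-ratios scaling, and 2 of the 31 genes then rose (Slc7a5 and Vldlr) and 3 fell (45.2% of all genes passed), Atf4 being the added one (-0.64, limma adjusted p = 0.0116). Ddit3 (1.21, 0.0765), Slc3a2 (0.53, 0.0535), Hars (0.22, 0.0736) and Kars (0.11, 0.297) kept their direction without passing. Leaving out replicate 1 of the day 5 controls gave 10 that rose and 3 that fell (49.8% of all genes passed). Structural RNA and histone genes held 14.0%, 6.16% and 6.43% of the TPM in the knockout against 14.6% to 18% in controls, and leaving them out gave 4 higher and 2 lower (39.3% of all genes passed). The progenitor marker sum was 117 to 175 in the knockout against 40.0 to 62.7, and the megakaryocyte sum 1241 to 1700.4 against 306 to 508. Mast cell and basophil markers summed to 1985, 5575 and 6440 in the knockout replicates against 1611 to 2133 in controls, so replicate 1 overlapped. Lymphocyte markers went the other way, at 2.33 to 5.73 in the knockout against 33.5 to 53.3. Macrophage markers summed to 3051 to 4189 in the controls of this course, close to the 3540.3 to 4329 of the macrophage course. Granulocyte markers held 122677 to 172145 against 37339.4 to 75213.9, so the control cultures of both courses express both sets. The part of cell composition in these results was not tested.

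The genes differed in how their knockout effect changed between day 3 and day 7, and both tests below use the same day 3 libraries. In the macrophage course 2 of the 31 genes passed upward and 4 downward, where 35.2% of all genes passed, 21.8% upward and 13.4% downward. On the granulocyte side 4 and 2 did (33.8%, 22.3% upward and 11.4% downward). Ddit3 changed by -2.20 in controls of the macrophage course and by 1.05 in the knockout, and by -2.39 and 1.31 in the other course. The genotype difference was 3.26 ± 0.73 (limma adjusted p = 0.00187) and 3.70 ± 0.80 (0.00159). Nupr1 differed in the macrophage course (2.27, 0.0167), with changes of -2.51 in controls and -0.24 in the knockout, and Vldlr in the granulocyte course (2.46, 0.0031), with -3.06 and -0.60. In the macrophage course Phgdh changed by -0.16 in controls and -1.77 in the knockout, a difference of -1.61 ± 0.26 (0.000127), and Psat1 by 0.00 and -1.25, a difference of -1.25 ± 0.27 (0.00166). Hars differed downward in both courses (-0.63, 0.00739, and -0.59, 0.00655), its knockout excess being 1.03 at day 3 and 0.40 and 0.44 at day 7. The counts were 12 and 14 without replicate 1 of the day 5 controls (40% and 40.7% of all genes).

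**Figure D4:**
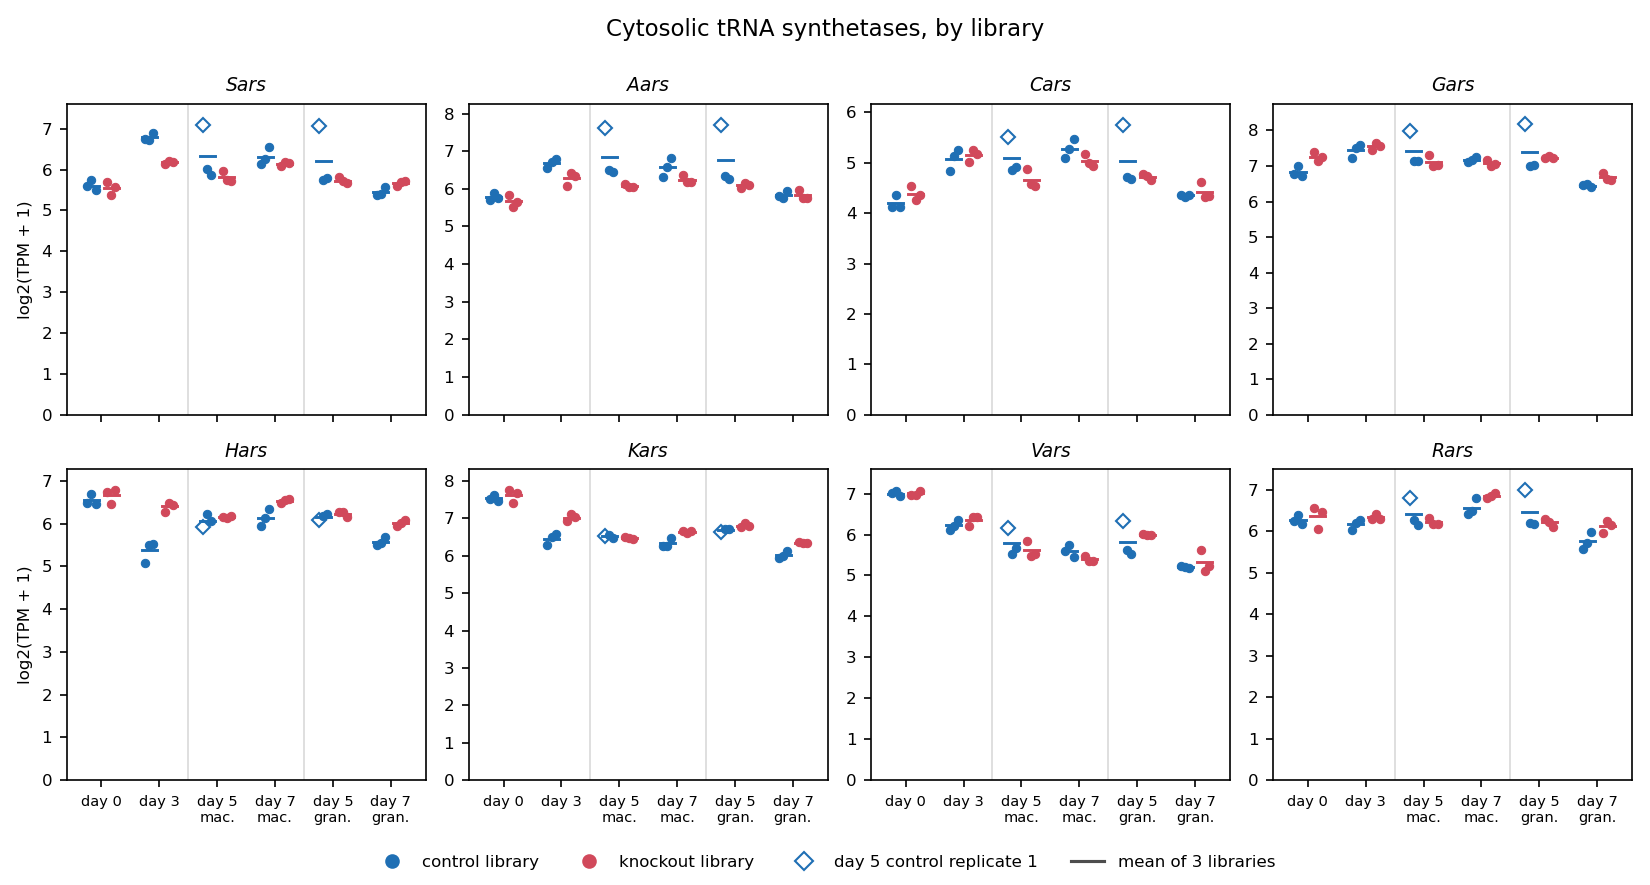
Levels of 8 cytosolic tRNA synthetases in each library, on the axis of log2(TPM + 1), by stage, with the 4 target synthetases that rose most in controls by day 3 above and the 4 other synthetases below. Dots are libraries, bars are means of 3 libraries and open diamonds mark replicate 1 of the day 5 controls, which lies above its group in Sars, Aars, Cars, Gars, Vars and Rars and not in Hars and Kars. Hars and Kars are lower in controls at day 3 than at day 0, at 32.9 to 45.3 TPM and 77.3 to 94.9 TPM, and knockout libraries lie above them at day 3.

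Across the 6 stages, Asns had every knockout library below every control library at 6 of 6, with differences that passed at 5. At these stages 16.5% (day 0), 34.3% (day 3), 46% and 17.8% (macrophage days 5 and 7), 31% and 15.7% (granulocyte days 5 and 7) of all genes had all knockout libraries below all controls. Atf4 fell at 4 stages and Nupr1 at 4 (5 each without replicate 1 of the day 5 controls), while 0 stages showed a rise of either. Hars and Kars each rose at 3 stages and fell at 0 with TPM as deposited. After median-of-ratios scaling neither passed at day 7 of either course, and both rose at day 5 of the macrophage course. Ddit3 fell at day 3 and rose at day 7 of the granulocyte course, a rise that did not pass after that scaling. The stages of a course share one variance estimate and the 2 courses start from shared cultures, so these counts are a description.

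**Figure D5:**
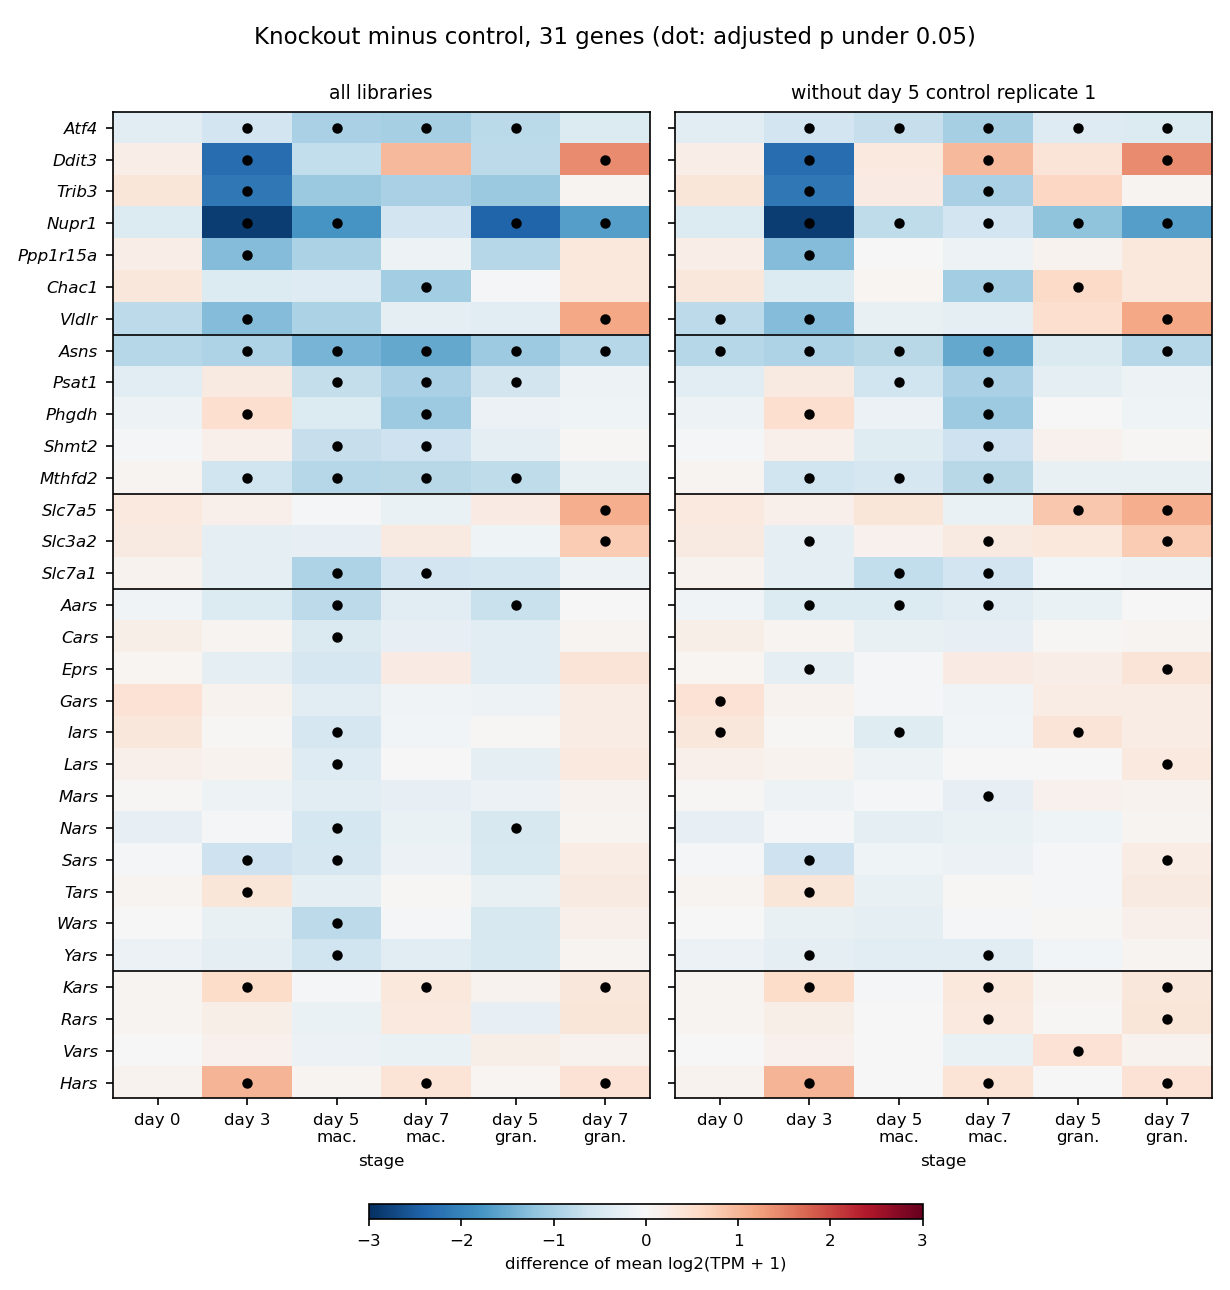
Difference between knockout and control in mean log2(TPM + 1) for each of the 31 genes (rows, ordered by role) at each of the 6 stages (columns), with all libraries and without replicate 1 of the day 5 controls. Dots mark a limma adjusted p under 0.05, and the colour scale runs from lower (blue) to higher (red) in the knockout. Asns is lower in every column, and with all libraries the deepest falls are those of Nupr1 at day 3 (-2.84) and at day 5 of the granulocyte course (-2.39).

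Lineage was compared in controls. At day 5 none of the 31 genes differed between the macrophage and granulocyte course by limma, where 3.01% of all genes did (0.961% higher and 2.05% lower), and 1 had an unadjusted p under 0.05. At day 7, 18 were higher in the macrophage course and 0 lower, with a median of 0.61 against 0.20 for all genes, of which 43.8% passed, 34% higher and 9.81% lower. Psat1 had 151, 155 and 126 TPM in the macrophage course against 75.1, 73.6 and 60.1 TPM (1.04 ± 0.24, limma adjusted p = 0.00179). Mthfd2 had 74.0, 80.9 and 88.1 TPM against 41.0, 39.5 and 35.8 TPM (1.04 ± 0.32, 0.0132). In both genes the courses did not overlap. Of the synthetases 13 of 16 were higher, Cars by 0.93, Iars by 0.90 and Yars by 0.83 among them, and of the stress regulators 0 of 7. Without replicate 1 of the day 5 controls 24 of the 31 were higher (53.5% of all genes passed), with 16 of 16 synthetases and, of the regulators, Atf4 (0.59) and Trib3 (1.06). After scaling, which moved the median of all genes to 0.03, 10 of the 31 were higher and 0 lower (35.3% of all genes passed).

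Whether the knockout effect at day 7 differed by lineage was also tested. None of the 31 genes passed with limma (4.28% of all genes did, 1.84% higher and 2.45% lower), and 4 had an unadjusted p under 0.05. The difference for Slc7a5 was -1.30, with a 95% interval from -2.31 to -0.29 (limma adjusted p = 0.162), for Phgdh -0.97 with an interval from -1.67 to -0.27 (0.126), and for Hars -0.04 with an interval from -0.30 to 0.23. Leaving out replicate 1 of the day 5 controls made 5 pass (7.57% of all genes), among them Slc7a5 (0.000308). With the replicate number as a block, Phgdh (limma adjusted p = 0.0126) and Psat1 (-0.83, 0.0128) passed (6.58% of all genes did). The block pairs the 2 courses by number, a pairing that was not shown for the control libraries. The higher Slc7a5 of the granulocyte course and the lower Phgdh of the macrophage course were therefore not shown to be particular to their course without the block, with all libraries.

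The wider pathway was read from further lists. Of 25 tested ATF4 targets outside the 31 genes, 20 rose and 1 fell in controls from day 0 to day 3, with a median of 1.73, where 33.3% of all genes rose and 39.6% fell. At day 3, 1 was higher and 12 were lower in the knockout, with a median of -0.60, against 26.5% and 26.7% of all genes. Gdf15, a stress-induced cytokine, was at 5.83 TPM in the knockout against 26.3 TPM (-1.99, limma adjusted p = 1.38e-06), and Atf5, an ATF4-related factor, at 9.22 against 41.9 TPM (-2.01, 5.63e-05). Slc1a5, a glutamine transporter gene, was the one that rose (0.67, 0.000471). At day 5, 0 rose and 11 fell in the macrophage course (37.9% of all genes fell), or 2 and 7 without replicate 1 of the controls, and 0 rose and 6 fell in the other course (22.8% of all genes), or 5 and 3 without it. At day 7 of the macrophage course 5 rose and 5 fell (27.4% and 12.5% of all genes), or 5 and 11 without that replicate, with Pck2 (-1.34) and the serine synthesis gene Psph (-0.88) lower and Gdf15 higher, at 213 against 114 TPM (0.93, 0.00489). At day 7 of the granulocyte course 4 rose and 0 fell (32.1% and 12% of all genes), or 11 and 3 without that replicate, Gdf15 by 2.05 (71.0 against 18.4 TPM, 3.56e-05) and the pro-apoptotic Bbc3 by 1.52. Gdf15, like Ddit3 with TPM as deposited, was thus lower in the knockout at day 3 and higher at day 7 of the granulocyte course.

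Genes upstream of Atf4 were read in the same way. The list held 15 tested genes, of eIF2, its kinases, its exchange factor eIF2B and regulators such as Ppp1r15b and Gcn1l1. At day 3, 8 were higher and 2 lower in the knockout, with a median of 0.33 (26.5% and 26.7% of all genes). Among those higher were Eif2b1 (0.88), Eif2b5 (0.82) and Gcn1l1, which activates the kinase GCN2 (0.76). At day 7, 9 were higher and 1 lower in the macrophage course, where 27.4% and 12.5% of all genes were, led by the kinase gene Eif2ak2 (0.96). On the granulocyte side 9 and 0 were called, where 32.1% and 12% of all genes were, or 3 and 3 after median-of-ratios scaling. At day 5 of the macrophage course 0 were higher and 3 lower, where 5.11% and 37.9% of all genes were, or 5 and 2 after scaling. At day 5 of the granulocyte course 1 and 1 were, where 9.2% and 22.8% of all genes were. The shares of all genes called in either direction after scaling are those given above for each stage. RNA levels do not measure eIF2 phosphorylation. Among 21 genes of the other arms of the unfolded protein response 9 were higher and 6 lower at day 3 (26.5% and 26.7% of all genes), with the chaperone Calr at 1367 against 577 TPM (1.25) and Sdf2l1 (0.88) and Sec61b (0.70) higher. At day 5, 11 of these 21 fell on the macrophage side (37.9% of all genes) and 12 on the granulocyte side (22.8%), 0 rose in either, and Pdia6, a disulphide isomerase, changed by -0.72 and -0.82.

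For the lists that follow, 26.5% of all genes were higher and 26.7% lower in the knockout at day 3. Of 7 further cytosolic synthetase and scaffold genes 4 rose and 1 fell at day 3, with Farsa and Aimp2 higher (0.52 each) and Dars lower, at 135 against 252 TPM (-0.90, limma adjusted p = 0.000156). Of 20 mitochondrial synthetase genes, 0 rose and 18 fell in controls from day 0 to day 3 (33.3% and 39.6% of all genes), and at day 3 10 were higher and 2 lower in the knockout, with Yars2 (0.89), Gatb and Mars2 (0.85 each) leading. Sars2 (-1.04) and Aars2 (-0.96) were lower from day 0. Of 12 one-carbon and serine genes outside the 31, 6 rose and 2 fell at day 3, with Mat2a (1.63) higher and Aldh1l1 (-1.40) lower. Of 14 further amino acid transporters 4 rose and 4 fell, with Slc7a6 higher (0.93) and Slc7a7 (-1.25) and Slc36a4 (-1.22) lower. Of 15 Myc and proliferation genes 10 rose and 1 fell at day 3, Cad, which starts pyrimidine synthesis, by 1.78 and Mcm2 by 0.83, and their part in the other changes was not tested.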

How the data were processed

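The deposited tables hold TPM that the authors made with RSEM on mm10, per the submitters' processing notes, which also name DESeq2 1.38.3 with no stated role. The annotation, the strand setting and the read depth were not stated in the sources used here. The 2 tables share their 12 day 0 and day 3 libraries.

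Each course was fitted with limma 3.58.1 (R 4.3.3) on log2(TPM + 1) over 24 libraries with a mean-variance trend, for genes at 1 TPM or more in at least 3 libraries. This left 11953 genes (macrophage course, also used for days 0 and 3), 11905 (granulocyte course) and 11553 (lineage), and all 31 genes passed. Benjamini and Hochberg adjustment ran over all genes of a fit, for 17 comparisons, with a threshold of 0.05. With 3 libraries a group, precision is limited by that number. On simulated tables of 11953 genes the macrophage course fit recovered 92% of 100 genes changed by 1 log2 unit at day 3. The simulated noise was independent between libraries, with no replicate that stood apart and no low genes among those changed. That share therefore does not apply to genes with a wide spread, such as Nupr1, Ddit3 and Trib3. Fold changes on the log2(TPM + 1) scale understate those of low genes.

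The 31 genes and the further lists were chosen with earlier results of these data known. All 31 genes are reported, and from each further list up to 3 genes with the smallest p per knockout comparison could be named. Alternatives were pseudocounts of 0.1 and 5, no filter, a stricter filter (5 TPM), scaling by median of ratios, removal of histone and short structural RNA genes, fitting groups alone, fitting all 36 libraries, a replicate block and leaving out each library. Replicates with the same number deviated together in knockout and control at day 5 of the macrophage course (correlations of 0.186 to 0.309). Unlike numbers there reached 0.159. Between the 2 courses, like numbers in the knockout correlated at 0.335 or more at day 5 and 0.367 or more at day 7. Unlike numbers reached 0.325 and 0.354. In controls the lowest like-number values, 0.504 and 0.317, were below the highest unlike-number values, 0.68 and 0.488. Deviations were taken from the mean of the 3 libraries of a group. Where replicate 1 stands apart, as in the day 5 controls, replicates 2 and 3 deviate together, which raises unlike-number values. The check therefore cannot decide there whether the numbers pair the control samples of the 2 courses, and such a pairing is not shown. Gene positions are from GENCODE on mm10 and promoter windows from RefSeq on GRCm38.p6.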

Additional observations from a re-analysis of the deposited data

Results flagged for a closer look

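The effect of the knockout differed between days by a direct test in at least 1 comparison for 11 of the 31 genes. Values are the difference of 2 log2 changes with its standard error and limma adjusted p, and all comparisons of day 3 with day 7 share the day 3 libraries. Of all genes, 32.3% passed for day 0 to day 3, and 35.2% (macrophage course) and 33.8% (granulocyte course) for day 3 to day 7. In each comparison the share of the 31 genes that passed was smaller. Between day 0 and day 3 the stress regulators Ddit3 (-2.49 ± 0.73, 0.0132), Trib3 (-2.51 ± 0.89, 0.0368) and Nupr1 (-2.44 ± 0.71, 0.0123) rose less in the knockout. The lysyl- and histidyl-tRNA synthetase genes Kars (0.48 ± 0.13, 0.00758) and Hars (0.92 ± 0.17, 0.000532) fell less. Between day 3 and day 7 of the macrophage course the knockout effect moved upward for Ddit3 (3.26 ± 0.73, 0.00187) and Nupr1 (2.27 ± 0.71, 0.0167). It moved downward for the serine and one-carbon genes Psat1 (-1.25 ± 0.27, 0.00166), Phgdh (-1.61 ± 0.26, 0.000127) and Shmt2 (-0.77 ± 0.29, 0.0418), and for Hars (-0.63 ± 0.17, 0.00739). In the granulocyte course it moved upward for Ddit3 (3.70 ± 0.80, 0.00159), Vldlr (2.46 ± 0.58, 0.0031), Slc3a2 (1.05 ± 0.37, 0.0355) and Sars (0.83 ± 0.30, 0.0361). It moved downward there for Phgdh (-0.64 ± 0.24, 0.0484) and Hars (-0.59 ± 0.16, 0.00655).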

How the results depend on the processing

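The count for controls from day 0 to day 3 stayed at 19 to 20 of the 31 genes, that for the lineages at day 5 stayed at 0, and that for the knockout at day 3 ran from 9 to 18 over the settings run. The cause of each change below was not tested, and a share after a count is that of all genes called in the same fit. Without replicate 1 of the day 5 controls the called genes (shares as in the report) went from 0 to 4 (knockout, day 0), 15 to 8 and 10 to 18 (macrophage days 5 and 7), 8 to 13 (granulocyte day 7), 7 to 20 and 3 to 6 (macrophage control steps), 9 to 24 (granulocyte days 3 to 5), 5 to 10, 6 to 12 and 6 to 14 (genotype differences in the change for day 0 to day 3 and, by course, day 3 to day 7) and 0 to 5 (knockout effect by lineage). It also turned calls or signs for Chac1 (0.58, knockout, granulocyte day 5), Wars (-0.47 and -0.43, days 3 to 5; 0.40, macrophage days 5 to 7), Sars (0.38, the same step) and Aars (-0.39, granulocyte days 3 to 5), while leaving out another day 5 control library gave -0.42 (Chac1), 0.26 and -0.33 (Wars, macrophage course), -0.24 (Sars) and 0.32 (Aars). Leaving out replicate 1 of the day 7 knockout gave 1 at day 0 (23.9%) and 1 by lineage (7.17%). Median-of-ratios scaling gave 1 at day 0 (25.7%), 8 at macrophage day 5 (38.6%, with Kars turned to 0.22), 5 at granulocyte day 7 (45.2%), 11 and 5 for the macrophage control steps (57.3% and 45.3%) and 10 for lineage at day 7 (35.3%). Groups fitted alone, with far fewer degrees of freedom, gave 3 at day 0 (17.8%), 2 and 0 at day 5 (30.9% and 22.2%), 3, 1, 2 and 9 for the control steps (34.3%, 24.1%, 28.9% and 20%), 12, 12 and 11 for the differences in the change (34.9%, 37.6% and 35.2%) and 2 by lineage (3.32%). Without a filter 3 at granulocyte day 5 (22.1%), 5 at granulocyte day 7 (31.8%) and 3 for the granulocyte difference in the change (25.7%) were called. A pseudocount of 5 gave 4 at granulocyte day 7 (42.7%), all 36 libraries together gave 1 for macrophage days 5 to 7 (37.4%) and 1 by lineage (5.53%), and dropping structural RNA and histone genes gave 2 at day 0 (31.3%). The replicate block gave 3 at day 0 (25.6%), 8 for the first difference in the change (35.1%), 20 against 15 at macrophage day 5 (46%), 21 against 18 for lineage at day 7 (49.8%) and 2 against 0 by lineage (6.58%). The numbers are seen to pair samples at macrophage day 5 and, between the courses, in the knockout. For controls a pairing between the courses is not shown. Elsewhere the samples share only a number. Leaving out 1 library at a time gave 0 to 1, 9 to 12, 8 to 22, 8 to 11, 2 to 12 and 3 to 9 (knockout at day 0, day 3, macrophage days 5 and 7, granulocyte days 5 and 7), 19 to 20, 4 to 20, 1 to 7, 3 to 24 and 20 to 30 (control steps in the order of the report), 4 to 5, 5 to 6 and 3 to 6 (differences in the change), 0 and 10 to 17 (lineage) and 0 to 1 (by lineage). Over 4864 planned values of single genes, other than those from leaving out 1 library, 4615 kept their call. Of the rest, 144 lost it, 104 gained one and 1 reversed, where a sign that turned with neither value passing (58) counts as kept. Over 3906 single-gene values from leaving out 1 library, 3611 kept their call, 205 lost it, 84 gained one and 6 reversed. There 257 signs turned with neither value passing. Read depth is unknown, so counting error could not be set beside the low genes.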
